A study of Mus musculus with 96 samples.

Results

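The genes described here are the chemokines, interleukins and growth cytokines of mouse embryonic fibroblasts that were starved of serum and then given it back. They are the 51 genes, of 15895 in the expression table, whose symbol names a CC, CXC or CX3C chemokine or a numbered interleukin, or is Lif, Csf1, Csf2, Csf3, Tnf, Tslp or Clcf1. The 51 comprise 15 CC chemokines, 11 CXC chemokines, 1 CX3C chemokine, 17 interleukins and the 7 genes chosen by name. The rule used the symbols and no measured value.

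The cells were primary fibroblasts of CF-1 mouse embryos at day 13. They spent 36 h in 0.5% fetal calf serum (FCS), and FCS was then raised to 20% at time 0 so that the cells re-entered the cell cycle. Polyadenylated RNA was sequenced in 2 time courses, called Cycle 1 (63 libraries used, running from -1 to 38 h) and Cycle 2 (32 libraries, running from -1 to 27 h), where 1 library was made at each time. No library in either Cycle stayed in low serum beside the others, so time in culture and the serum itself cannot be told apart. The starved state of each Cycle is its library at -1 h and its library at 0 h, and the values are a normalized signal in which every library was scaled to the same total. Recovered totals ran from 4352235 to 12551892 reads, with a median of 9375098, so that 1 read was worth between 0.690 and 1.973 units of signal and values of a few units rest on a few reads. In these pooled cells, fewer cells of a type and less RNA per cell cannot be told apart.

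Chemokines are small secreted proteins that guide moving leukocytes through receptors coupled to G proteins. Interleukins, colony stimulating factors and the IL-6 family act through other receptors, many but not all of which start Jak-Stat or NF-kB signalling. Fibroblasts make many of them, and several of their genes are classical early targets of serum: Cxcl1 and Ccl2 were first known as KC and JE, genes that growth factors switch on in quiescent mouse fibroblasts. Their RNAs are often short-lived, since factors such as Zfp36 and Zc3h12a bind and remove them.

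All 12 fibroblast markers of a fixed list were present in the starved cells, with a summed signal between 418197 and 584432. Of 16 macrophage markers 15 were measured, and none was at 0 throughout. Their sum in starved cells was 1449 and 1541 in Cycle 1 and 4204 and 4270 in Cycle 2. Endothelial (10 genes, starved sums 379 to 785), epithelial (10 genes, 210 to 461) and lymphocyte markers (5 of 10 measured, 29.7 to 61.6) were low beside the fibroblast markers. The library of Cycle 2 at 0.5 h stood apart in its macrophage markers, and the values it touches are given below.

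Of the 51 genes, 40 had a mean signal of at least 10 over all libraries and 11 lay below it (Ccl12, Ccl22, Ccl28, Cxcl11, Cxcl13, Il10, Il15, Il19, Il23a, Il24 and Il25). Per kilobase of exon, the highest levels in starved cells belonged to Ccl7 (2603), Ccl2 (2462), Cxcl1 (1657), Cxcl5 (1070), Cxcl14 (733), Csf1 (524) and Cxcl12 (487). The highest single values per kilobase after serum were 14753 for Ccl2, 11000 for Cxcl1, 8636 for Ccl7, 4058 for Il11 and 3422 for Csf1.

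The question of each comparison is how far these genes moved from the starved state at a given time after serum. Hours sampled in both Cycles were grouped into windows of 1 to 3 h, 4 to 8 h, 9 to 14 h, 15 to 20 h and 21 to 27 h (5, 5, 6, 6 and 7 libraries per Cycle) and set against the 4 starved libraries with limma on log2(signal + 1), with the Cycle as a block. A gene is called when its Benjamini-Hochberg adjusted p over all 15895 genes is below 0.05 and its log2 change is above 1 in size. The fold change of a low gene is understated on this scale.

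Most of these cytokine genes moved, and most that rose did so early and briefly. An F test over all 29 shared hours called 44 of the 51, against 52.5% of all genes. At the hour of largest change 26 of them were above the starved level and 18 below it, against 15.5% and 37% of all genes. At 1 to 3 h 25 were higher and 2 lower (5.3% and 11.8% of all genes), and at 4 to 8 h 16 were higher and 9 lower (7.64% and 18.6%). From 9 h the balance turned, with 7 higher and 17 lower at 9 to 14 h (6.96% and 16.6%), 6 higher and 20 lower at 15 to 20 h (6.8% and 17.1%), and 6 higher and 24 lower at 21 to 27 h (6.59% and 19%). The median log2 change over the 51 went from 0.93 through 0.49, -0.16 and -0.42 to -0.90, while that of all genes stayed between -0.26 and -0.13. With the 2 genes that were at 0 in every starved library set at the bound that 3 reads allow, the first of these medians was 0.78. Under TMM scaling the median of all genes at 1 to 3 h moved from -0.26 to -0.05, and 27 of the 51 were then higher and 2 lower.

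Set directly against 1 to 3 h, 21 to 27 h held 39 of the 51 genes at a lower level and 2 at a higher one, against 15.3% and 10.5% of all genes. The 2 were Tslp and Ccl17. Without overlap between the window and the starved libraries in either Cycle, 20 genes stood above and 3 below at 1 to 3 h (6.59% and 22.4% of all genes), and 6 above and 17 below at 21 to 27 h (17.2% and 25.6%).

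**Figure D1:**
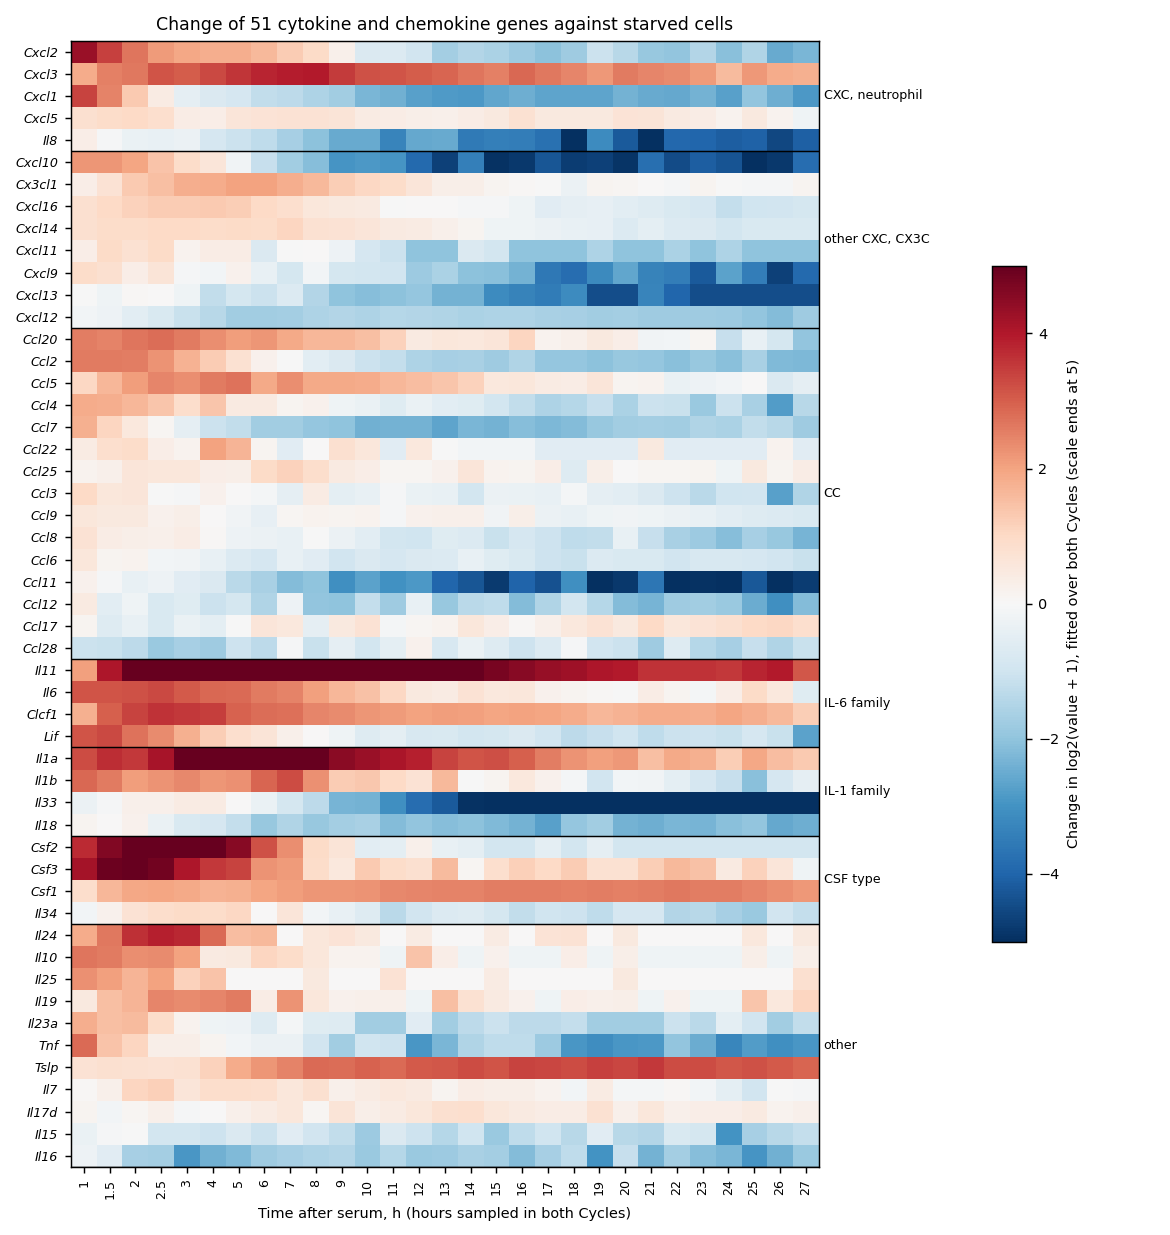
Change in log2(signal + 1) against the 4 starved libraries at each hour sampled in both Cycles (x axis, h after serum), fitted with Cycle as a block, for the 51 genes in rows grouped by role, with red for higher and blue for lower and Il8 drawn beside the neutrophil attractants. Of the 51 genes, 25 were called higher at 1 to 3 h and 24 were called lower at 21 to 27 h.

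The starved libraries were not alike in part of this gene group. Of the 51 genes 8 were over 2-fold higher at 0 h than at -1 h in both Cycles (Ccl2, Ccl7, Cxcl1, Cxcl2, Il1b, Il6, Lif and Tnf), against 0.862% of all genes. Cxcl1 read 299 and 2339 at -1 and 0 h of Cycle 1, and 180 and 3498 in Cycle 2. Cxcl2, its close relative and likewise a neutrophil attractant, read 3.01 and 98.5 in Cycle 1 and 7.63 and 323 in Cycle 2. For Cxcl1 and Cxcl2 both 0 h libraries lay above both -1 h libraries. A contrast of 0 h against -1 h, added after the data had been seen, called 3 of the 51 higher, against 0.428% of all genes: Cxcl2 (log2 change 4.93 ± 0.68 SE, adjusted p = 1.6e-05), Cxcl1 (3.62 ± 0.48, adjusted p = 1.1e-05) and Ccl2 (1.45 ± 0.31, adjusted p = 0.012). Fos, the textbook first gene to answer serum, rose in the same step, from 914 to 24883 in Cycle 1 and from 466 to 15149 in Cycle 2. Whether serum or handling had already reached the 0 h cells was not tested.

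With the 0 h libraries alone as the starved state, 16 rather than 25 genes were higher at 1 to 3 h, and Ccl4, Cxcl1, Cxcl10, Cxcl16, Cxcl2, Il19, Il1b, Il23a and Tnf were no longer called. With the -1 h libraries alone 26 were called, Ccl7 being the addition. Of those 9, Cxcl1 turned to -0.38, Tnf went from 1.18 to 0.08 and Cxcl2 from 2.90 to 0.43, while Il19 (1.69 to 1.48), Cxcl16 (1.10 to 0.97) and Il23a (1.20 to 0.94) kept most of their change. The late falls depend on the choice as well: against the -1 h libraries alone 18 rather than 24 genes were lower at 21 to 27 h, and Ccl3, Ccl4, Ccl7, Cxcl1, Cxcl2, Il23a and Lif were no longer called.

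**Figure D2:**
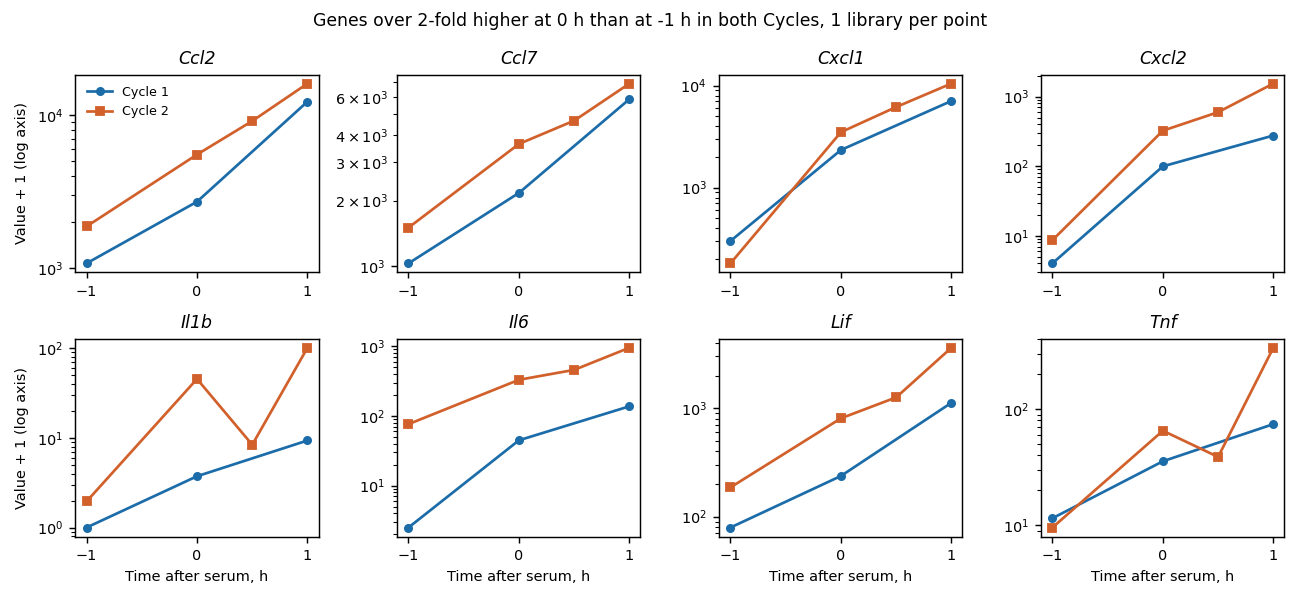
Signal + 1 (log axis) around the addition of serum for the 8 genes over 2-fold higher at 0 h than at -1 h in both Cycles, 1 library per point, with time after serum from -1 to 1 h on the x axis and a library at 0.5 h in Cycle 2 alone. Cxcl1 stood at 299 and 180 at -1 h and at 2339 and 3498 at 0 h.

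The CXC chemokines that attract neutrophils through Cxcr2 differed in the time of their peaks. Cxcl1 was highest at 1 h in both Cycles, at 7072 and 10483, and by 4 to 8 h it lay between 239 and 545 in the 10 libraries. At 15 to 20 h its values were 113 to 199 in Cycle 1 and 84.9 to 158 in Cycle 2. It was called higher at 1 to 3 h (1.43 ± 0.47, adjusted p = 0.010) and lower at 15 to 20 h (-2.56 ± 0.46, adjusted p = 1.2e-05). Against the -1 h libraries alone the late change was -0.75 (adjusted p = 0.091) and was not called, although every library of that window lay below the -1 h library of its Cycle. Cxcl2 peaked at 1 h too, at 275 in Cycle 1 and 1543 in Cycle 2, and was called higher at 1 to 3 h (2.90 ± 0.64, adjusted p = 0.00028) and lower at 21 to 27 h (-1.96 ± 0.62, adjusted p = 0.0060). Against the -1 h libraries alone its change at 21 to 27 h turned to 0.51 and was not called.

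Cxcl3 of the same cluster followed another course. Its starved values were 6.01 and 13.7 in Cycle 1 and 10.5 and 14.0 in Cycle 2. It peaked at 142 at 7 h and at 290 at 8 h, and at 21 to 27 h the medians were still 44.2 and 54.1. Every library from 1 h to 27 h in these windows lay above every starved library of its Cycle. It was called higher in all 5 windows, most at 4 to 8 h (3.72 ± 0.23, adjusted p = 2.5e-15). Cxcl5, which acts on the same receptor, was abundant throughout (starved 2022 and 2025, then 1307 and 1727) and was called in no window, its log2 change at 1 to 3 h being 0.78 ± 0.16. Of the 4 genes, 3 were called higher at 1 to 3 h. Cxcl2 and Cxcl3 share 61 stretches of 50 bases, the read length, which is 3.33% and 6.35% of their stretches, so reads of these could have been placed on either gene.

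Cxcl1, Cxcl2 and Cxcl3, each called higher at 1 to 3 h, carry the same 10 bases close before their start. The bases were read in RefSeq promoter sequence of GRCm38.p6 (250 bases before to 50 bases after each start). The stretches are shown because the 3 genes share a cluster and a rise at 1 to 3 h but fell back at different times. Capitals mark a match to an NF-kB type motif, written as GGGA, any base, TT, any base and CC, and searched on both strands. The stretch of Cxcl1 lies at chr5:90891149-90891208, that of Cxcl2 at chr5:90903777-90903836 and that of Cxcl3 at chr5:90786003-90786062, all on the plus strand, with the match beginning at position -71, -97 and -73 from the gene start.
Cxcl1: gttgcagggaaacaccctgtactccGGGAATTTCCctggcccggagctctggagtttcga
Cxcl2: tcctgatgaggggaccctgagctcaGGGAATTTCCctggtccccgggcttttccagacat
Cxcl3: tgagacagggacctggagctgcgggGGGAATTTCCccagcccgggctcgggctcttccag

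Of the 51 genes 32 had a promoter in that table, some of them more than 1. A gene was counted when any of its promoters held the motif, whereas the shares of all are of single promoters. The shares are therefore not of like units, and a gene with several starts had more chances of a match. The NF-kB type motif was found in 7 of them (Csf1, Cxcl1, Cxcl10, Cxcl2, Cxcl3, Il16 and Il6), which is 21.9%, beside 1.2% of all 32851 promoters. The AP-1 type motif TGANTCA was found in 9 (Ccl28, Ccl9, Cxcl10, Cxcl9, Il11, Il16, Il1a, Il6 and Lif), which is 28.1%, beside 7.81% of all. The CRE type motif TGACGTCA was found in 0 of the 32 and in 1.79% of all promoters. Il16 has both of the first motifs, but at different starts (AP-1 type at -18, NF-kB type at -49), and it fell in all 5 windows. Which of its starts these cells used was not tested.

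Il8, as the table names it, lies between Cxcl3 and Cxcl1 and fell. Mice lack a gene orthologous to human IL8, and RefSeq lists the symbol as a synonym of Cxcl15, a chemokine known from lung epithelium. Its starved values were 66.1 and 46.5 in Cycle 1 and 60.1 and 58.5 in Cycle 2, and at 21 to 27 h it lay between 0 and 2.47 and between 0 and 5.36. The groups did not overlap in either Cycle, and the log2 change was -4.24 ± 0.34 (adjusted p = 1.4e-12). Together these 5 genes span 146.6 kb (chr5:91188325-91334935 in NCBIM37, the build of the deposited table). Of the 5 genes, 3 rose early, 1 was not called and 1 fell. Genes outside the symbol rule were not counted in this span.

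Of the other CXC and CX3C chemokines 3 of 8 were higher at 1 to 3 h and 5 of 8 lower at 21 to 27 h. The trio of Cxcl9, Cxcl10 and Cxcl11, interferon-induced ligands of Cxcr3 that call in T cells, lies within 44.16 kb (chr5:92750357-92794511). Cxcl10 read 134 and 211 in the starved libraries of Cycle 1 and 39.1 and 98.9 in those of Cycle 2, and peaked at 640 at 1 h and at 423 at 1.5 h. By 15 to 20 h it was between 1.70 and 2.41 and between 2.33 and 7.54, with no overlap. It was called higher at 1 to 3 h (1.74 ± 0.44, adjusted p = 0.0011) and lower at 15 to 20 h (-4.73 ± 0.43, adjusted p = 3e-11). Its exons overlap those of Art3 on the other strand, and the counting did not keep strands apart.

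Cxcl9 had no early rise by the test. It read 93.2 and 107 in the starved libraries of Cycle 1 but 11.5 and 9.07 in those of Cycle 2, and had dropped to 0 to 4.93 and 0 to 4.50 at 21 to 27 h. Both Cycles went down without overlap, from starved levels that did not overlap between them, and the log2 change was -3.67 ± 0.42 (adjusted p = 4.7e-09), made of -5.03 in Cycle 1 and -2.31 in Cycle 2. Cxcl11, at 1.91 to 4.51 in the 4 starved libraries, fell as well (-1.88 ± 0.34 at 21 to 27 h, adjusted p = 1.5e-05), on a few reads.

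Cxcl13, which guides B cells through Cxcr5, was likewise higher in the starved cells of Cycle 1 (78.2 and 69.3) than in those of Cycle 2 (4.77 and 5.77). It reached a median of 0 at 21 to 27 h in both, with highest values of 0.822 and 1.71 (-4.20 ± 0.55, adjusted p = 5e-08). Cxcl12, the stromal factor that binds Cxcr4 and holds blood stem cells in the marrow, was lower from 4 h on. It stood at 3419 and 3346 and at 4585 and 4578 in the starved cells and had come down to medians of 1177 and 1312 by 4 to 8 h. All 5 libraries of that window lay below the starved ones in each Cycle, and the fall was called there (-1.62 ± 0.13) and in each later window, down to -1.87 ± 0.13 (adjusted p = 2.3e-14).

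Cx3cl1, a chemokine that is also a membrane-bound adhesion molecule, rose and returned. From 225 and 254 in Cycle 1 and 242 and 237 in Cycle 2 it reached 1212 at 5 h and 810 at 6 h, and at 21 to 27 h its medians were 307 and 202. The change at 4 to 8 h was 1.85 ± 0.10 (adjusted p = 2.6e-16), and that at 21 to 27 h was 0.01 ± 0.10. Cxcl16, the membrane-bound ligand of Cxcr6, had starved means of 142 and 109 and was called higher at 1 to 3 h only (1.10 ± 0.19, adjusted p = 7.6e-06). Cxcl14 differed between the Cycles: it began at 388 and 337 in Cycle 1 and at 2192 and 2429 in Cycle 2, its medians at 4 to 8 h were 1647 and 1670, and no window was called.

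Of the 15 CC chemokines 4 were higher at 1 to 3 h (Ccl2, Ccl20, Ccl4 and Ccl5) and 1 lower (Ccl28), while 8 were lower at 21 to 27 h and none higher. Ccl2, the main attractant of monocytes, read 1075 and 2721 in the starved libraries of Cycle 1 and 1874 and 5535 in those of Cycle 2. It peaked at 12286 at 1 h and at 16789 at 2 h, and at 21 to 27 h it lay between 373 and 701 and between 342 and 979. The early libraries all lay above the starved ones and the late libraries all below them. The log2 changes were 2.35 ± 0.23 at 1 to 3 h (adjusted p = 3.6e-10) and -2.02 ± 0.22 at 21 to 27 h (adjusted p = 2.3e-09).

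Ccl7, the monocyte attractant next to Ccl2, shared the peak at 1 h (5862 and 6917) but left it sooner. Its values at 1 to 3 h overlapped the starved ones in both Cycles, and the change of 0.61 ± 0.25 was below the threshold of size. By 9 to 14 h it had fallen to medians of 232 and 573 (-2.34 ± 0.25, adjusted p = 8.5e-10), and it was lower in every window from 4 h on, though not at 4 to 8 h or 21 to 27 h against the -1 h libraries alone.

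Ccl11, the eosinophil attractant eotaxin, lies in the same cluster of 5 genes over 81.23 kb (chr11:81849073-81930301, with Ccl2, Ccl7, Ccl12 and Ccl8) and only fell. Its starved values were 239 and 214 in Cycle 1 and 64.9 and 61.0 in Cycle 2, and at 21 to 27 h it read 0 to 6.58 and 1.86 to 11.9. The windows did not overlap the starved libraries from 4 h on in either Cycle, and the change was -4.75 ± 0.57 (adjusted p = 1.1e-08). Ccl8, at starved means of 76.1 and 73.7, and Ccl12 were also lower at 21 to 27 h (-1.81 ± 0.22 and -2.20 ± 0.40), so all 5 genes were then below the starved level.

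Ccl20, the ligand of Ccr6, read 13.5 and 7.29 and then 27.7 and 56.9 in the starved libraries, and reached 110 at 6 h in Cycle 1 and 348 at 2 h in Cycle 2. It was called higher at 1 to 3 h (2.62 ± 0.43) and 4 to 8 h (2.04 ± 0.43). Ccl5, an attractant of T cells and monocytes, was higher at 1 to 3 h, 4 to 8 h (2.28 ± 0.47, adjusted p = 8.2e-05) and 9 to 14 h, where the change was 0.02 in Cycle 1 and 3.14 in Cycle 2. Its starved level was higher in Cycle 1 (25.6 and 31.0) than in Cycle 2 (4.77 and 3.296). At 21 to 27 h the Cycles stood at -2.15 in Cycle 1 and 1.66 in Cycle 2.

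The neighbours of Ccl5, that is Ccl9, Ccl6, Ccl3 and Ccl4 (138.9 kb, chr11:83339280-83478185), are genes that macrophages are known for. Ccl4, at starved means of 13.6 and 23.5, rose at 1 to 3 h (1.51 ± 0.37, adjusted p = 0.00089) and was lower from 15 h, though not against the -1 h libraries alone. Ccl3, at 27.4 and 40.0, was lower at 21 to 27 h (-1.32 ± 0.43, adjusted p = 0.0077). That change was -2.3 in Cycle 1 and -0.32 in Cycle 2, where the window overlapped the starved libraries. Against the -1 h libraries alone it was -0.75 and not called. Ccl6 and Ccl9 were called in no window, and their widest changes were -0.90 ± 0.26 and -0.49 ± 0.13 at 21 to 27 h. Ccl28 and Ccl12 lie below a mean signal of 10, and Ccl28 was lower at 1 to 3 h (-1.40 ± 0.33), 4 to 8 h and 21 to 27 h. Ccl17, Ccl22 and Ccl25 were called in no window. Ccl25, known from the gut and thymus, had starved means of 22.3 and 23.6 and its widest change at 4 to 8 h (0.72 ± 0.22). Ccl17, a ligand of Ccr4, was among the 2 genes higher late than early, at 7.02 to 15.8 and 6.46 to 15.3 at 1 to 3 h and at 22.5 to 40.5 and 20.5 to 31.5 at 21 to 27 h.

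Macrophage markers moved with part of this group. Their summed signal in starved cells was 2.83 times as high in Cycle 2 as in Cycle 1, with 14 of 15 markers higher. Ccl6 stood at 107 and 85.7 against 1093 and 990, Il1b at 0 and 2.74 against 0.954 and 44.5, and Ccl12 at 3.01 and 4.56 against 39.1 and 34.6. At 0.5 h of Cycle 2 the sum was 930, against 4204 at 0 h and 5856 at 1 h, and 14 of the 14 markers that could be measured there were below 50% of the mean of 0 and 1 h. So were 12 of 39 cytokine genes (Ccl12, Ccl20, Ccl3, Ccl4, Ccl6, Ccl8, Ccl9, Csf3, Cxcl3, Il1a, Il1b and Tnf), against 1.45% of all genes, 0 of 12 fibroblast markers and 2 of 7 endothelial markers. Of these 12 genes 7 (Ccl12, Ccl3, Ccl4, Ccl6, Ccl8, Ccl9 and Il1b) were also below 50% of their 0 h value, while Ccl20 (56.9 at 0 h and 90.5 at 0.5 h) and Csf3 (6.59 and 25.8) were above it and were low only beside their level at 1 h. That library is in none of the windows tested. Over the windows the macrophage sum changed from 1667 to 2263 at 1 to 3 h to 748 to 971 at 21 to 27 h in Cycle 1, and from 4469 to 5856 to 2535 to 3193 in Cycle 2, and its part in the early rises and late falls of these genes was not tested.

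**Figure D3:**
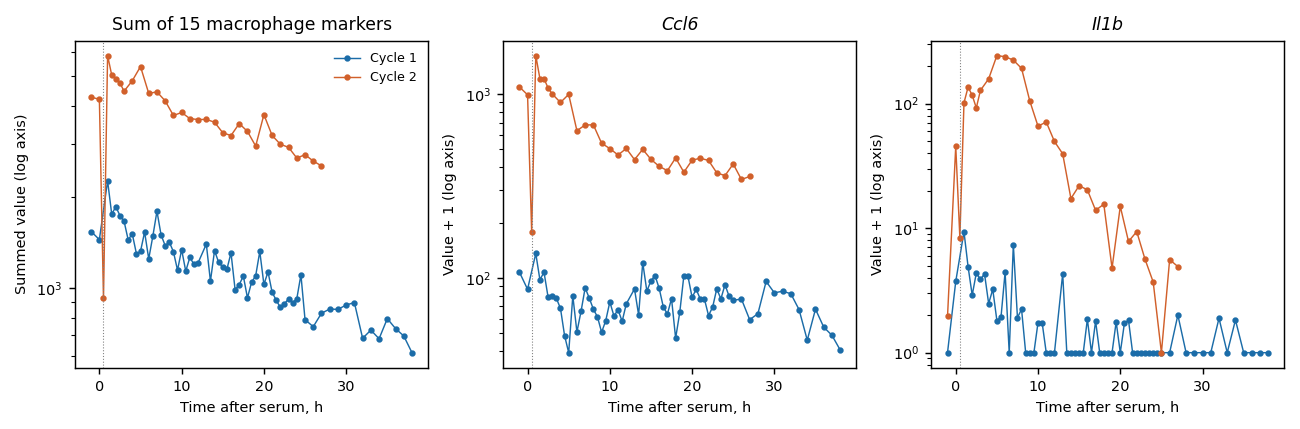
Summed signal of 15 macrophage markers, and the signal + 1 of Ccl6 and Il1b (all on log axes), in each library of both Cycles against time after serum in h, 1 library per point. In Cycle 2 the sum was 930 at 0.5 h, between 4204 at 0 h and 5856 at 1 h, and Cycle 2 lay above Cycle 1 at every hour that both Cycles sampled.

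All 4 cytokines of the IL-6 family, which signal through gp130 (Il6st), rose at 1 to 3 h. Il11, which fibroblasts make in wound healing and fibrosis, had the largest rise of the 51 genes in these windows. Its starved values were 28.6 and 12.8 in Cycle 1 and 30.5 and 36.3 in Cycle 2. At 4 to 8 h it lay between 1000 and 3472 with a median of 2562 in Cycle 1, and between 3933 and 5353 with a median of 4901 in Cycle 2. The peaks of 3575 at 6.5 h and 5353 at 6 h were 173 and 160 times the starved means, and the libraries at 21 to 27 h, at medians of 353 and 318, still lay above every starved one. The log2 change at 4 to 8 h was 6.89 ± 0.34 (adjusted p = 8.4e-18), 6.71 in Cycle 1 and 7.07 in Cycle 2.

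Il6 itself, the inflammatory cytokine of the family, rose earlier and differed in level between the Cycles. It read 1.50 and 43.8 in the starved libraries of Cycle 1 and 75.4 and 330 in those of Cycle 2, and then 93.6 to 137 and 953 to 1600 at 1 to 3 h. All early libraries were above the starved ones of their Cycle and those of Cycle 2 lay above all of Cycle 1, and the change was 3.17 ± 0.62 (adjusted p = 5.5e-05). It was called at 4 to 8 h as well (2.56 ± 0.62) and in no later window. Against 0 h alone the 4 to 8 h change was 0.99 and not called, and against -1 h alone Il6 was called higher in every window, at 1.80 by 21 to 27 h.

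Lif, which keeps mouse embryonic stem cells undifferentiated, read 78.2 and 236 and then 185 and 805 in the starved libraries. Its peaks were 1120 at 1 h and 4522 at 1.5 h, and it was called higher at 1 to 3 h (2.66 ± 0.50, adjusted p = 3.4e-05) and lower at 21 to 27 h (-1.30 ± 0.48, adjusted p = 0.018), a fall that was -0.38 and not called against the -1 h libraries alone. Clcf1, a ligand of the CNTF receptor, went from 51.1 and 87.5 and from 59.1 and 65.9 to 835 at 2.5 h and 820 at 4 h. Its rise was called in all 5 windows, from 3.06 ± 0.16 at 1 to 3 h (adjusted p = 1.4e-16) to 1.73 ± 0.15 at 21 to 27 h.

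The promoters of Il11 and Il6 are shown for the motifs they hold, in capitals as above with the AP-1 type added. The stretch of Il11 (chr7:4778208-4778264, minus strand, the second of its starts) has an AP-1 type match at -98 from the start, and that of Il6 (chr5:30012864-30013104, plus strand) has an AP-1 type match at -249 and an NF-kB type match at -44.
Il11: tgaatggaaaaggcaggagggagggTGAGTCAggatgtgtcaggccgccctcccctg
Il6: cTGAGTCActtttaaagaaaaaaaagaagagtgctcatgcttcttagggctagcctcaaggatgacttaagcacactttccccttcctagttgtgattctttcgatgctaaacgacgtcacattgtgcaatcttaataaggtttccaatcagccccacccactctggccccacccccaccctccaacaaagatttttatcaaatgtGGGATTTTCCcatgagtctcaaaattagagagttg

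Of the 4 colony stimulating factors and their like 3 were higher at 1 to 3 h. Csf2 (GM-CSF), a growth factor of granulocytes and macrophages, was close to nothing in starved cells, at 0 and 0.912 in Cycle 1 and 0.954 and 2.47 in Cycle 2. It reached 14.9 to 109 and 38.3 to 104 at 1 to 3 h, with a peak of 122 at 4 h in Cycle 1, and was listed at 0 in all 14 libraries of 21 to 27 h. The log2 change was 5.04 ± 0.31 at 1 to 3 h (adjusted p = 8e-15). Csf3 (G-CSF), which drives neutrophil production, went from 3.01 and 0.912 and from 6.68 and 6.59 to 52.0 to 93.6 and 107 to 232 in the same window, without overlap (4.596 ± 0.37, adjusted p = 2.9e-12).

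Csf1, the growth factor on which macrophages live, kept another time and another scale. It stood at 2093 and 2189 and at 3310 and 3443 in the starved cells, rose to medians of 9610 and 9044 at 1 to 3 h, stood at medians of 9224 and 12388 at 4 to 8 h, and reached 18005 at 24.5 h in Cycle 1 and 16757 at 19 h in Cycle 2. It was the only gene of the 51 that was called higher and had its peak after 14 h in both Cycles. The change was called in all 5 windows and was largest at 15 to 20 h (2.55 ± 0.12, adjusted p = 3e-18). Il34, the second ligand of the same receptor Csf1r, went down, from 31.6 and 24.6 and from 25.8 and 14.0 to medians of 8.04 and 8.39 at 21 to 27 h (-1.34 ± 0.20, adjusted p = 7.9e-07).

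Among the 4 cytokines of the IL-1 family, which signal through Myd88 to NF-kB, Il1a and Il1b rose and Il33 and Il18 fell. Il1a, an alarm signal held in the cell until it is damaged, read 1.50 and 3.65 in Cycle 1 and 3.82 and 25.6 in Cycle 2. It was 219 to 479 and 312 to 462 at 4 to 8 h, with its peak at 5 h in both Cycles, and the change was 5.81 ± 0.43 (adjusted p = 1.8e-13). Il1a stayed called in all 5 windows, at 1.60 ± 0.41 by 21 to 27 h. Against the 0 h libraries alone that last change was 0.76 and not called. In Cycle 2 its values at 15 to 20 h and 21 to 27 h overlapped the starved ones. Il1b, the form that macrophages release, was called at 1 to 3 h and 4 to 8 h (2.59 ± 0.78, adjusted p = 0.0045), but the change at 4 to 8 h was 0.72 in Cycle 1, where it stayed between 0.813 and 6.38, and 4.47 in Cycle 2, where it lay between 157 and 242. Both genes have exons that overlap another gene on the other strand.

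Il33, an alarm signal kept in the nucleus, had the largest fall of the 51 genes in these windows. It read 667 and 668 in the starved libraries of Cycle 1 and 396 and 339 in those of Cycle 2, and stayed near that level to 3 h, at 520 to 690 and 314 to 635. It was down to medians of 37.1 and 59.4 at 9 to 14 h, and at 21 to 27 h it lay between 1.97 and 5.40 and between 5.40 and 12.8. From 9 h on no library reached the starved range, and the change at 21 to 27 h was -6.16 ± 0.31 (adjusted p = 2.6e-17). Il1rl1, which encodes the Il33 receptor ST2, rose at 4 to 8 h, a window where Il33 was not called (-0.42 ± 0.33, adjusted p = 0.26). Il1rl1 then lay between 24730 and 42600 in Cycle 1 and between 22748 and 33921 in Cycle 2, from 260 and 2631 at -1 h. Its change was 5.30 ± 0.36 (adjusted p = 2.8e-14). Il18, which acts with interleukin-12 on T cells, fell from 28.6 and 43.8 and from 21.0 and 26.4 to medians of 5.76 and 4.50 at 21 to 27 h (-2.31 ± 0.30, adjusted p = 5.2e-08).

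**Figure D4:**
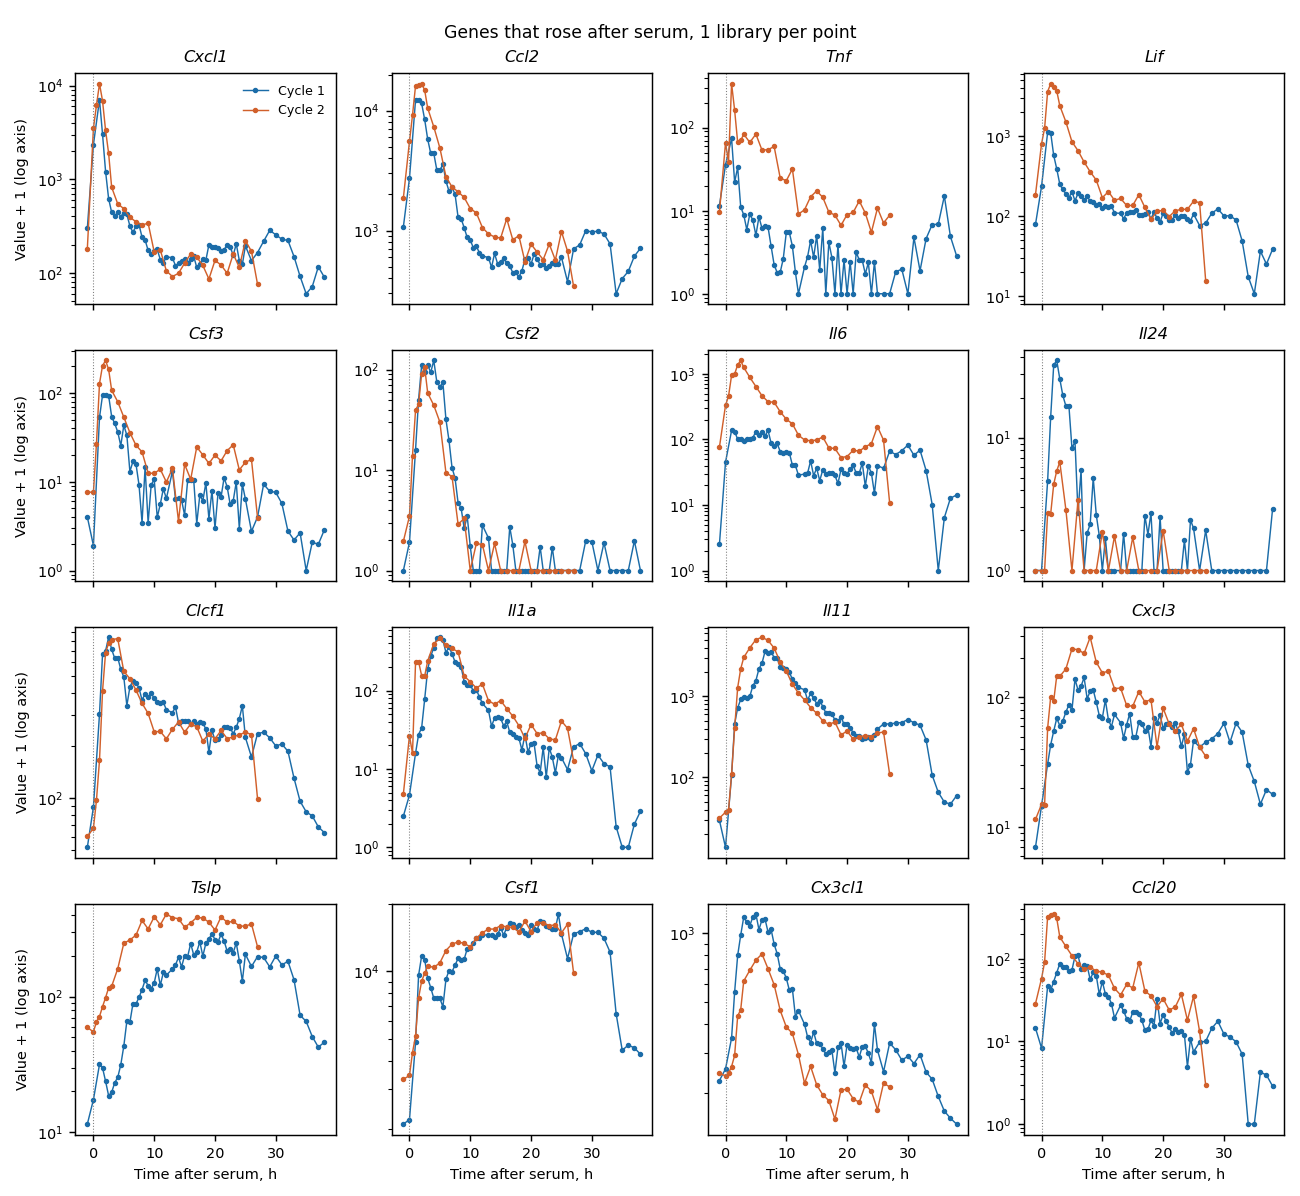
Signal + 1 (log axis) of genes that rose after serum, in each library of Cycle 1 and Cycle 2 against time after serum in h. Csf2 and Csf3 peaked within 4 h, Il11 at 6.5 and 6 h, and Csf1 at 24.5 and 19 h.

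The other interleukins and cytokines held 6 of 11 that were higher at 1 to 3 h. Tslp, which acts on dendritic cells, was the slow one. It read 10.5 and 16.4 in the starved libraries of Cycle 1 and 58.2 and 54.0 in those of Cycle 2, was 17.6 to 30.7 and 70.3 to 118 at 1 to 3 h, and 198 to 265 and 308 to 382 at 15 to 20 h. The change at 15 to 20 h was 3.31 ± 0.29 (adjusted p = 1.4e-11), and it was called in every window from 4 h. Tslp and Csf1 were thus both highest well after the early group, with Tslp at its peak at 19.5 h in Cycle 1 and at 12 h in Cycle 2.

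Tnf, the tumour necrosis factor, rose briefly and then fell. It read 10.5 and 34.7 and then 8.59 and 64.3 in the starved libraries, peaked at 1 h at 73.4 and 337, and at 21 to 27 h lay between 0 and 1.55 and between 4.50 and 12.1. It was called higher at 1 to 3 h (1.18 ± 0.47, adjusted p = 0.033) and lower at 21 to 27 h (-2.76 ± 0.45, adjusted p = 2.5e-06), although in Cycle 2 the late libraries overlapped the library at -1 h. The early change was 0.13 in Cycle 1, where the window (7.92 to 73.4) overlapped the starved values, and 2.22 in Cycle 2.

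Il24, of the interleukin-10 family, was listed at 0 in all 4 starved libraries. At 1 to 3 h its mean was 22.9 ± 14.1 (SD, n = 5) in Cycle 1 and 3.40 ± 1.73 (SD, n = 5) in Cycle 2. Against 3 reads in each starved library this is at least 6.34-fold higher in Cycle 1 and at least 1.27-fold higher in Cycle 2, which covers counting error only. The fitted change was 3.15 ± 0.48 (adjusted p = 1.2e-06). Il25 was also at 0 in the starved libraries and was called, but its means at 1 to 3 h, 3.24 and 2.47, were at or under those 3 reads. Il10, Il19 and Il23a were called higher at 1 to 3 h on few reads, with highest signals of 8.52, 15.0 and 13.8.

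Il16, a ligand of Cd4, was among the 2 genes that were lower at once. It read 51.1 and 47.4 and then 59.1 and 44.5 in starved cells, and the medians were 18.0 and 18.5 at 1 to 3 h and 7.89 and 13.8 at 21 to 27 h. It was called lower in all 5 windows, to -2.24 ± 0.22 (adjusted p = 1.2e-10). Il15, which sustains natural killer cells, was lower from 9 to 27 h on a signal of at most 9.02 in starved cells. In Cycle 1, the only one sampled later, it then reached 27.4 at 35 h and stood at 20.7 at 38 h. Il17d, at starved means of 55.8 and 37.6, and Il7, a factor of lymphocyte survival at 21.1 and 6.44, had their widest changes at 9 to 14 h (0.59 ± 0.18) and 4 to 8 h (0.79 ± 0.24). Neither was called in any window, which brings the genes called in none to 9 with Ccl17, Ccl22, Ccl25, Ccl6, Ccl9, Cxcl14 and Cxcl5.

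**Figure D5:**
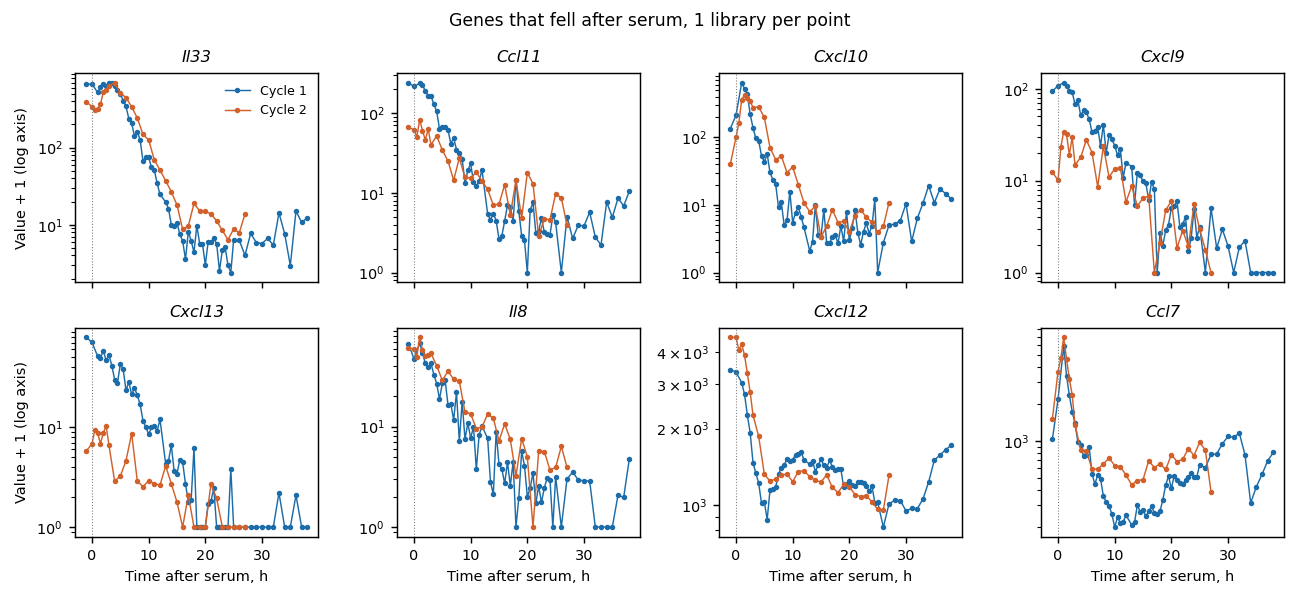
Signal + 1 (log axis) of genes that fell after serum, in each library of Cycle 1 and Cycle 2 against time after serum in h. Il33 went from 668 and 339 at 0 h to medians of 4.66 and 7.80 at 21 to 27 h, whereas Cxcl10 was called higher at 1 to 3 h before it fell and Ccl7 had its highest values at 1 h.

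The times of the rises can be set side by side. Of the 26 genes that were higher in at least 1 window, 19 were so only at 1 to 3 h or 4 to 8 h, 5 were so in all windows (Clcf1, Csf1, Cxcl3, Il11 and Il1a), and 8 were lower than in starved cells by 21 to 27 h. Against the -1 h libraries alone 5 of these 8 were not called lower (Ccl4, Cxcl1, Cxcl2, Il23a and Lif). Against the 0 h libraries alone Il1a was not called higher at 21 to 27 h. The peak hours of the 26 genes lay within 1 h of each other in the 2 Cycles for 16 genes and over 3 h apart for 4. A peak by 3 h in both Cycles was seen for 13 (Ccl2, Ccl4, Csf3, Cxcl1, Cxcl10, Cxcl2, Il10, Il23a, Il24, Il25, Il6, Lif and Tnf), and a peak between 3.5 and 8 h in both for 6 (Ccl5, Cx3cl1, Cxcl3, Il11, Il19 and Il1a). Since a peak is the highest of many single libraries, its hour carries the error of those libraries.

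The last libraries of each Cycle stood apart in genes of this group. At 27 h of Cycle 2, 8 of the 26 genes that could be compared were below 50% of their value at 26 h (Ccl7, Clcf1, Cxcl1, Cxcl5, Il11, Il1a, Il6 and Lif), against 1.03% of all genes, and at the same step of Cycle 1 none of 24 was. Il11 went from 363 to 109 and Lif from 147 to 14.7 between these libraries. In Cycle 1 a like step came at 34 h, where 5 of 23 were below 50% of 33 h (Ccl2, Ccl7, Il11, Il6 and Lif), against 0.974% of all genes. From 30 to 33 h to 35 to 38 h, with 4 libraries each, Csf1 went from 14024 ± 1290 to 4502 ± 178 (SD), Cxcl5 from 3334 ± 467 to 1085 ± 202, and Tslp from 170 ± 27.9 to 50.2 ± 10.2. For these genes the values of the groups did not overlap. Between the same groups 9 of 23 genes compared were over 2-fold lower and 1, Il15, was over 2-fold higher. The shares of all genes were 1.72% and 5.20%. These hours were sampled in Cycle 1 alone, so the step has no second time course, and no test was run on it. Without the library at 27 h of Cycle 2, 7 genes were higher and 24 lower at 21 to 27 h.

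Of 62 receptors of cytokines and chemokines 51 were measured. At 1 to 3 h 10 were higher and 2 lower, at 4 to 8 h 11 and 11, at 9 to 14 h 7 and 16, at 15 to 20 h 6 and 16, and at 21 to 27 h 3 were higher and 20 lower. The shares were 19.6% and 3.92% at 1 to 3 h and 5.88% and 39.2% at 21 to 27 h. Those of all genes were 5.3% and 11.8%, then 6.59% and 19%. Il1rl1 is described above, and Cxcr6, the receptor of Cxcl16, rose at 4 to 8 h (3.52 ± 0.35, adjusted p = 2.5e-10) to between 20.3 and 60.4 in Cycle 1 and between 32.4 and 61.8 in Cycle 2. Cxcr4, the receptor of Cxcl12, rose at 1 to 3 h (2.82 ± 0.28, adjusted p = 2.7e-10), from 22.6 and 25.8 at -1 h to 183 to 407 and 72.4 to 208, while its ligand fell. Ccrl2, which holds chemerin at the cell surface, was lower at 21 to 27 h (-2.68 ± 0.40). It was raised at 0 h (30.1 and 58.5, from 4.51 and 6.68 at -1 h), and its late medians were 0.822 and 2.80. Of 29 other ligands and antagonists on a fixed list, which holds chemokines and cytokines named otherwise and a few more growth factors, 20 were measured, 3 were higher and 1 lower at 1 to 3 h, 3 and 6 at 4 to 8 h, 2 and 8 at both 9 to 14 h and 15 to 20 h, and 1 was higher and 9 lower at 21 to 27 h. These are 15% and 5% at 1 to 3 h and 5% and 45% at 21 to 27 h. Areg, an EGF receptor ligand, rose by 6.80 ± 0.29 at 4 to 8 h (adjusted p = 2.6e-19), and Ppbp, a neutrophil attractant of platelets that lies outside the rule by name alone, by 4.19 ± 0.26 at 9 to 14 h. Flt3l (-3.04 ± 0.36 at 9 to 14 h) and Tnfsf10 (-2.68 ± 0.47 at 21 to 27 h) fell.

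Of 23 NF-kB subunits and feedback inhibitors 5 were higher and 0 lower at 1 to 3 h, 3 and 0 at 4 to 8 h, 0 and 4 at 9 to 14 h, and 0 were higher and 7 lower at both 15 to 20 h and 21 to 27 h. The 5 higher are 21.7%, beside 5.3% of all genes, and the 7 lower at 21 to 27 h are 30.4%, beside 19%. Nfkb1 rose at 1 to 3 h (1.77 ± 0.09, adjusted p = 6.6e-17), as did Traf1 (1.86 ± 0.53), whereas Bcl3 (-1.96 ± 0.18 at 15 to 20 h) and Tnfaip3 (-1.85 ± 0.41 at 21 to 27 h) were lower later. Tnfaip3 was raised at 0 h, from 200 at -1 h to 836 in Cycle 1 and from 110 to 1288 in Cycle 2. Its late medians were 106 and 143, so in Cycle 2 the median lay above the -1 h value. Of 12 factors of cytokine mRNA decay 11 were measured, with 1 higher and 1 lower at 1 to 3 h, 0 and 3 at 4 to 8 h, and 0 higher and 2 lower in each later window. The 2 lower are 18.2%, which is near the 16.6% to 19% of all genes in those windows. Zc3h12a, an endonuclease that cuts Il6 RNA, rose at 1 to 3 h (2.69 ± 0.19, adjusted p = 2.7e-13), and Zfp36 (-2.51 ± 0.39) and Zfp36l1 (-2.39 ± 0.14) were lower at 21 to 27 h. Zfp36 was raised at 0 h (10157 and 6169, from 842 and 559 at -1 h). Its late medians of 420 and 494 lay below the -1 h values too. Tia1 was lower at 4 to 8 h (-1.15 ± 0.13). In Jak-Stat signalling 22 of 23 genes were measured, 2 were higher and 3 lower at 1 to 3 h, 0 and 5 at 4 to 8 h, and 0 higher and 4 lower in each later window. The 4 lower are again 18.2%, near the share of all genes. Cish rose (1.73 ± 0.14 at 1 to 3 h), and Stat2 (-2.18 ± 0.37 at 21 to 27 h) and Socs3 (-2.08 ± 0.27 at 9 to 14 h) fell. Socs3 was raised at 0 h (1882 and 1860, from 386 and 758 at -1 h), and its medians at 9 to 14 h were 199 and 283.

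The marker lists moved as follows beside these genes. Of 12 fibroblast markers 1 was higher and 0 lower at 1 to 3 h, and 1 was higher (S100a4) and 6 lower at 21 to 27 h, among them Lum, Col3a1 and Dcn (-3.44, -3.27 and -2.63). Of the 15 macrophage markers 0 were called at 1 to 3 h and 4 were lower at 21 to 27 h, among them C1qa (-1.45 ± 0.25), and Mrc1 fell at 15 to 20 h (-1.77 ± 0.22), while Csf1r, the receptor of Csf1 and Il34, was higher at 9 to 14 h (1.24 ± 0.12). At 21 to 27 h 1 endothelial marker of 10 was higher and 5 were lower, 1 epithelial marker of 10 was higher and 6 were lower, and of 5 lymphocyte markers 0 were higher and 2 were lower. Of all genes 19% were lower then, beside 50%, 26.7%, 50%, 60% and 40% of the fibroblast, macrophage, endothelial, epithelial and lymphocyte markers. At 4 to 8 h 1 endothelial marker was higher (Flt1, 2.82 ± 0.31) and 2 lower, and 2 epithelial markers were higher and 1 lower. At 1 to 3 h 2 lymphocyte markers were higher and 0 lower (Cd3e and Cd79b, on few reads). The part of other cell types in the late falls was not tested.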

How the data were processed

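Expression was measured in 95 RNA libraries by single-end 50-bp stranded mRNA sequencing, with 12 samples per lane. The values were deposited as a normalized signal per gene, made by the authors with CASAVA, STAR alignment to mm9 and HOMER, whose versions are not given in the sources used here. Reads on exons of both strands were counted, so genes that overlap on opposite strands cannot be told apart. 1 of the 96 columns names its time, 12.5 h, but not its Cycle; it was not used, and it lies at no hour that both Cycles share. Libraries were grouped by the time and Cycle in the labels. Nothing says whether the Cycles came from separate cell preparations, or the hours of 1 Cycle from independent cultures. The p-values therefore measure only the spread between these libraries, with each hour taken as independent. A change that differs between the Cycles through a whole window can still have a small SE, as for Ccl5 at 9 to 14 h (0.02 and 3.14, SE 0.46).

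The members, gene lists and tests were chosen with earlier results of these data known. The lists held receptors, other ligands, NF-kB, mRNA decay and Jak-Stat genes, and markers of fibroblasts, macrophages, endothelium, epithelium and lymphocytes. Changes followed through the other settings were the 8 largest called rises and 8 largest called falls with the same direction in both Cycles. Many other genes are given with statistics as well. With limma 3.58.1 in R 4.3.3, log2(signal + 1) of 62 libraries was fitted on starved state or hour with Cycle as a block (31 residual degrees of freedom), and p-values were adjusted by Benjamini-Hochberg over 15895 genes. The block rests on the hours that the Cycles share by label: over 465 pairs of hours the deviations of the Cycles correlated with a median of 0.426 (-0.0317 to 0.862). Whole reads were worked out from the value of 1 read in each library (94.2% to 96.1% of low values whole) and refitted with edgeR 4.0.16, which called 47 of the 51 genes and 7606 of all genes over all hours. The floors of 3 reads cover counting error only, whereas the SE and SD given measure scatter between libraries. On data simulated with an overdispersion (scatter beyond counting error) of 0.02, the 4 to 8 h contrast recovered 200 of 200 changed genes among 15895. It also called 2 unchanged ones. Recovery at the scatter between starved libraries and at the low levels seen in part of the 51 genes was not tested. Sequences came from RefSeq, GRCm38.p6. Figures were drawn with matplotlib 3.10.9 in Python 3.11.15.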

Additional observations from a re-analysis of the deposited data

Results flagged for a closer look

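Among the 4 starved libraries, the library of Cycle 2 at 0 h stood far from the other three for 4 of the 51 genes: Il1a (25.6, against 1.50 to 3.82), Il1b (44.5, against 0 to 2.74), Il10 (0.824, against 0 in each) and Il19 (0.824, against 0 in each). The values of Il10 and Il19 are those of 1 read, and about 1 group in 20 is picked out in this way by chance.

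The Cycles moved in opposite directions from their own starved libraries for 5 genes, with every library of the window on that side in each Cycle; the difference was not tested. Cxcl14 had log2 changes of 2.28, 2.01, 1.04 and 0.63 in Cycle 1 and -0.43, -1.14, -1.75 and -2.08 in Cycle 2 at 4 to 8 h, 9 to 14 h, 15 to 20 h and 21 to 27 h. Ccl5 had -1.42 and -2.15 in Cycle 1 and 2.28 and 1.66 in Cycle 2 at 15 to 20 h and 21 to 27 h. At 4 to 8 h Ccl3 had -1.69 and 1.72 and Il23a -1.41 and 0.68, and at 9 to 14 h Cxcl16 had -0.44 and 0.74. Macrophage markers summed to 1494.7 and 4237.3 in the starved cells of the Cycles, and their part in these differences was not tested.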

How the results depend on the processing

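No count and none of the 16 changes followed (the 8 largest called rises and 8 largest called falls) reversed. Other called changes of 2 genes did: Cxcl1 at 1 to 3 h (-0.38) and Cxcl2 at 4 to 8 h (-0.97) against the 0 h libraries alone, and Cxcl1 at 4 to 8 h (0.69) and Cxcl2 at 15 to 20 h (0.85) and 21 to 27 h (0.51) against the -1 h libraries alone. Counts over 1.5 times from those reported were 16 higher at 1 to 3 h against the 0 h libraries alone, 5 lower at 4 to 8 h against the -1 h libraries alone, 12 higher at 9 to 14 h without a minimum size, and 1 lower at 1 to 3 h with a pseudocount of 4 or a minimum mean of 10. Cxcl1 at 15 to 20 h was lost against -1 h alone (-0.75). Without the replicate block (the pairing by hour) 38 genes were called over all hours, 22 higher and 2 lower at 1 to 3 h, and 6 and 21 at 21 to 27 h. Leaving out 1 library or a Cycle gave 0 to 46 over all hours, 0 to 26 higher and 0 to 2 lower at 1 to 3 h, 9 to 17 and 6 to 12 at 4 to 8 h, 6 to 8 and 9 to 19 at 9 to 14 h, 6 to 7 and 12 to 21 at 15 to 20 h, 6 to 7 and 13 to 26 at 21 to 27 h, 33 to 39 lower late than early, and 2 to 4 higher at 0 h. Every count that moved over 1.5 times came from leaving out a Cycle: without Cycle 1 0 were higher at 1 to 3 h, and without Cycle 2 13 were, where 1 residual degree of freedom makes the test over all hours void. On 1 Cycle alone Il6 at 1 to 3 h and Cxcl1 at 15 to 20 h missed the threshold in both. The edgeR fit gave 23 higher and 2 lower at 1 to 3 h and 6 and 27 at 21 to 27 h. Of the other alternatives 132 of 137 counts stayed within 1.5 times. At this depth, changes of genes at a few units of signal rest on single reads.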
